A study of Oryzias latipes with 6 samples.

Results

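The nephrocystins and the inversin compartment of the cilium were followed in the testis of medaka (Oryzias latipes), a small laboratory fish, through the transcripts of 7 genes: nphp4, invs, nek8, anks6, iqcb1, cep290 and glis2. The genes were found in the deposited expression table by symbol, by the identifier of the nephrocystin-4 row, or by the Swiss-Prot gene name of rows that carry an identifier alone. This gave 10 rows of 24365, because cep290 matched 3 rows and glis2 matched 2. All 10 passed the filter on low values, which asks for 1 FPKM on average in the mutant or in the wild type. FPKM is the number of fragments scaled to gene length and to a library size set by the authors. Levels of different genes are set side by side on this scale, and such comparisons rest on the deposited gene lengths.

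RNA was sequenced from 3 libraries of nphp4-/- fish and 3 libraries of wild-type (WT) fish. Each library pooled the testes of 2 fish. The series calls the mutation a gene knockout, and the lesion, the strain and the age of the fish are not given in the sources used here. The comparison asks how transcripts of the testis differ between nphp4 mutant and wild-type fish.

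Nephronophthisis is an inherited kidney disease of defective cilia, and the proteins mutated in it are called nephrocystins. Nephrocystin-4 sits in the transition zone, the gate between the base of a cilium and the cell. Inversin, the kinase Nek8 and the ankyrin repeat protein Anks6 assemble in the inversin compartment, a stretch of the cilium just beyond that gate. Iqcb1 and Cep290 bind each other at the transition zone and the centrosome, and Glis2 is a zinc finger transcription factor. Developing sperm are among the cells of the testis that build an axoneme.

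Depth was similar in the groups, with 13438879 to 16054354 reads on genes in the mutant libraries and 14691441 to 16004325 in the wild-type libraries. The tissue label was checked against marker genes. Summed markers of spermatocytes, the meiotic germ cells, stood at 2068 to 2324 FPKM in mutant and 1689 to 2246 FPKM in wild-type libraries. Wild type 3 stood apart: across genes, its log2 levels correlated with those of the rest at a median of 0.878, where the other 5 libraries had medians of 0.950 to 0.969. Its summed exocrine pancreas markers reached 19425 FPKM, against 288 to 2901 FPKM in the mutant libraries and 1196 and 1440 FPKM in wild type 1 and 2. Kidney tubule markers, from the organ in which nephrocystins are best known, summed to 12.7, 75.5 and 12.8 FPKM in mutant 1, 2 and 3 and to 16.1, 11.3 and 58.0 FPKM in wild type 1, 2 and 3. The kidney marker umod had no read in any library.

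nphp4, the mutated gene (ENSORLG00000023493, chromosome 7, 571495 to 671521, minus strand), was still transcribed in the mutant testis. Its level was 6.84, 7.00 and 10.9 FPKM in mutant 1, 2 and 3, against 17.1, 23.5 and 12.2 FPKM in wild type 1, 2 and 3. Every mutant library lay below every wild-type library, and the nearest pair was mutant 3 and wild type 3. These values rest on 1008 to 1885 reads in each mutant library and 1760 to 3783 in each wild-type library, so counting error is small beside the spread between libraries. The mean was 8.26 ± 2.32 FPKM in the mutant and 17.6 ± 5.68 FPKM in wild type (SD, n = 3 each), a ratio of 0.469.

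The log2 difference of nphp4, as mutant minus wild type of log2(FPKM + 1), was -0.99 (SE 0.27, 95% interval -1.63 to -0.35). Its unadjusted p in limma was 0.00827 and its adjusted p was 0.436 over 15203 tested genes, above the threshold of 0.05. By p it ranked 288 of these genes, and by size of difference 423. A 2-sided exact permutation test over the libraries gave p = 0.1, below which groups of 3 and 3 cannot go. In bulk tissue, fewer cells that transcribe a gene and less RNA per cell cannot be told apart. A gene on the opposite strand inside nphp4, ENSORLG00000026614 (625062 to 629867), held 0 reads in the mutant and 1 in wild type.

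The plot of levels by library sets the 10 rows side by side. In the mutant nek8 had the highest level, and nphp4, invs and iqcb1 followed at levels whose ranges overlapped. In wild type nphp4 and nek8 shared the highest levels, with ranges of 12.2 to 23.5 and 12.3 to 20.2 FPKM, and both lay above every value of the other 8 rows. Among genes with any read in the group, the mean level of nphp4 stood at the percentile 63.8 in the mutant and 78.2 in wild type.

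**Figure D1:**
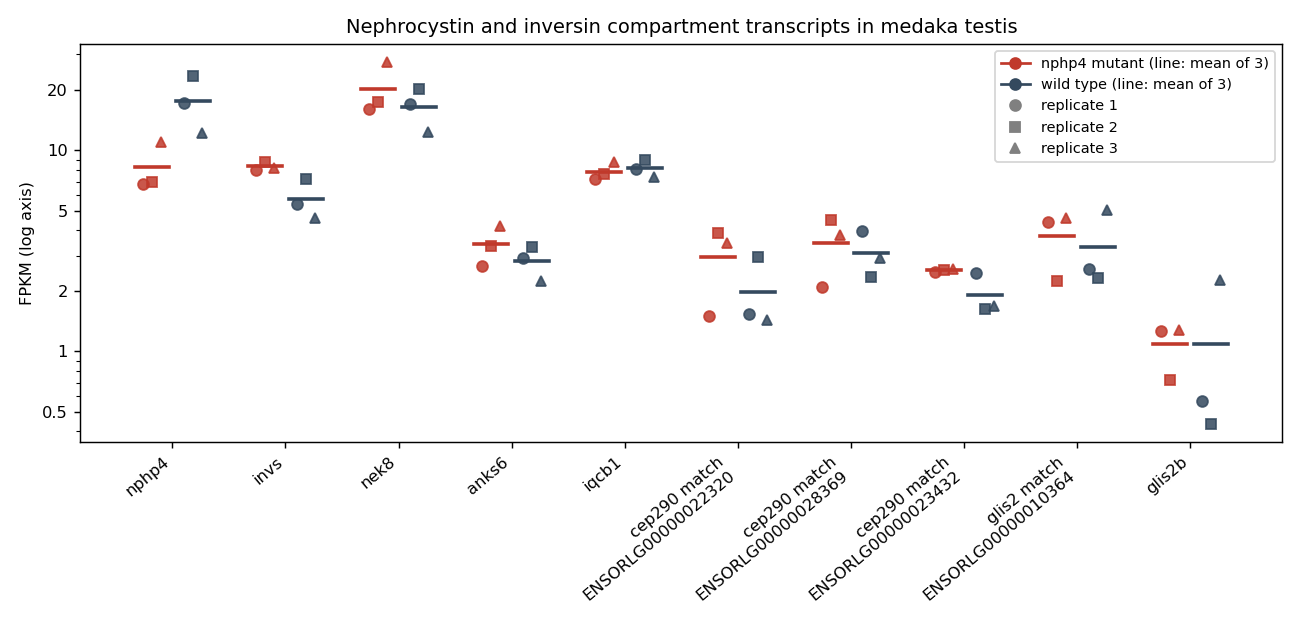
FPKM (log axis) of each of the 10 rows in the 3 nphp4 mutant libraries, left, and the 3 wild-type libraries, right, with marker shape giving the replicate number and a line at the group mean. The nphp4 points of the mutant (6.84 to 10.9 FPKM) all lie below those of wild type (12.2 to 23.5 FPKM), whereas for most other rows the groups overlap.

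0 of the 10 rows passed the threshold in limma, where 0.0592% of all tested genes did, 0.0329% higher and 0.0263% lower in the mutant (9 genes, 5 higher and 4 lower). An unadjusted p below 0.05 was reached by 2 of the 10, nphp4 and invs, against 7.13% of all tested genes. limma-voom on the reads behind the FPKM called 0 of all 15203 tested genes, so its 0 of the 10 says nothing about these rows. In limma-voom 2 of the 10 had an unadjusted p below 0.05, where 1050 of all tested genes did. The groups did not overlap in 3 of the 10 rows, where this held for 14.0% of all tested genes, 7.55% higher and 6.45% lower in the mutant. These were nphp4, lower in the mutant, and invs and the longest cep290 row, higher in the mutant.

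invs encodes inversin, the ankyrin repeat protein after which the compartment is named (ENSORLG00000008786, chromosome 16, 17648666 to 17665469, plus strand). Its level was 8.02, 8.73 and 8.19 FPKM in the mutant libraries, against 5.44, 7.19 and 4.62 FPKM in the wild-type libraries. The mutant libraries were close together and all above the wild-type libraries, which were more spread. The means were 8.31 ± 0.372 and 5.75 ± 1.31 FPKM in mutant and wild type (SD, n = 3 each), a ratio of 1.45. The log2 difference was 0.48 (SE 0.17, 95% interval 0.076 to 0.89; unadjusted p = 0.0262, adjusted p = 0.604, limma), which did not pass. The unadjusted p was 0.0563 or more without wild type 1, wild type 3 or any 1 mutant library, and 0.00687 without wild type 2. A gene on the other strand within invs held 3 reads over all libraries.

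nek8 encodes the kinase of the compartment (ENSORLG00000004422, chromosome 13, 10044166 to 10053698, plus strand). Its level was 16.1, 17.3 and 27.5 FPKM in the mutant libraries, against 16.9, 20.2 and 12.3 FPKM in the wild-type libraries. The groups overlapped, with mutant 3 above and wild type 3 below all others. The log2 difference was 0.27 (SE 0.26, adjusted p = 0.863, limma), with a 95% interval for the ratio of 0.795 to 1.83 on the FPKM + 1 scale. Without mutant 3 and wild type 3 the log2 difference was -0.14. A p above the threshold does not show that the levels were equal, and the folds inside this interval remain compatible with these libraries.

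anks6 encodes the ankyrin repeat and SAM domain protein that binds Nek8 (ENSORLG00000005322, chromosome 20, 10658068 to 10680476, minus strand). It stood at 2.66, 3.36 and 4.22 FPKM in the mutant libraries, against 2.91, 3.32 and 2.23 FPKM in the wild-type libraries. As for nek8, mutant 3 was the highest library and wild type 3 the lowest, and the groups overlapped (log2 difference 0.20, SE 0.20, adjusted p = 0.865, limma). Without these 2 libraries the log2 difference was -0.040. The row shares 8364 bases of its span with zgc:56231 on the other strand, a gene with 319179 reads over the 6 libraries. RefSeq places rps20, a ribosomal protein gene, over much of this span besides anks6. Counting by strand is not stated, so reads of these genes cannot be told apart where exons overlap.

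Among the libraries of each group, the ratios of anks6 and nphp4 to nek8 varied less than the levels of anks6 and nphp4. The ratio of anks6 to nek8 was 0.165, 0.194 and 0.154 in the mutant libraries, against 0.172, 0.164 and 0.181 in the wild-type libraries. The ratio of nphp4 to nek8 was 0.425, 0.405 and 0.398 in the mutant libraries, against 1.01, 1.16 and 0.990 in the wild-type libraries. The first ratio overlapped between the groups and the second did not. Mutant 3 and wild type 3, the nearest pair of libraries for nphp4 in FPKM, stood far apart on this scale. nek8 was itself highest in mutant 3 (27.5 FPKM) and lowest in wild type 3 (12.3 FPKM), so dividing by it widens this gap. The wider gap is therefore not a separate result for nphp4. In the mutant libraries the ratio of invs to nek8 varied more than the level of invs, at 0.498, 0.504 and 0.298. In the wild-type libraries it varied less than the level of invs, at 0.322, 0.356 and 0.375. The ratios were looked at after the levels had been seen, so they are given as a description, with no test.

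**Figure D2:**
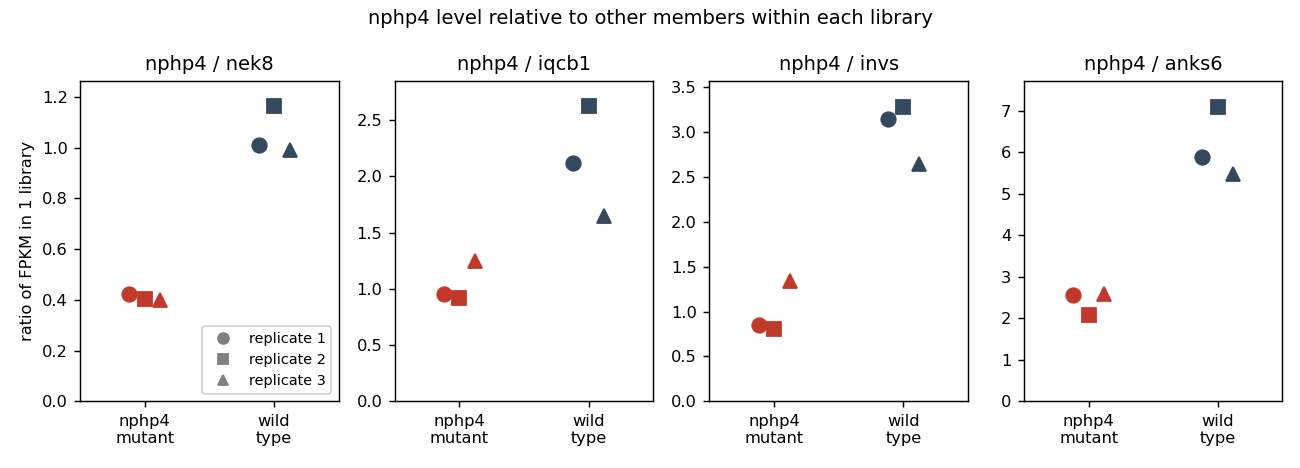
Ratio of the FPKM of nphp4 to that of nek8, iqcb1, invs and anks6 in each library (vertical axes start at 0 and differ in scale), for the nphp4 mutant, left, and wild type, right. Against nek8 the mutant libraries lie at 0.398 to 0.425 and the wild-type libraries at 0.990 to 1.16. The groups do not overlap in any of the 4 panels, nor did they in the FPKM of nphp4 alone.

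The ratio of nphp4 to each of the 9 other rows gave groups without overlap for 7 of them, the exceptions being both glis2 rows. The FPKM of nphp4 alone already separated the groups, and each ratio carries this over, so the 7 are not separate results. How often the ratio of nphp4 to any tested gene separates the groups was not determined. Against iqcb1 it ran from 0.923 to 1.25 in the mutant and from 1.65 to 2.63 in wild type. Against invs it ran from 0.802 to 1.34 in the mutant and from 2.64 to 3.27 in wild type. In wild type nphp4 thus exceeded both genes in every library, and in the mutant it did so in 1 library of 3.

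iqcb1, the calmodulin-binding partner of Cep290 (ENSORLG00000001455, chromosome 2, 10991045 to 11006718, minus strand), had the smallest difference in log2(FPKM + 1), although by the ratio of means glis2b (0.995) lay nearer 1 than iqcb1 (0.962). The level of iqcb1 was 7.17, 7.59 and 8.76 FPKM in the mutant libraries, against 8.09, 8.96 and 7.38 FPKM in the wild-type libraries. The ranges lay almost on top of each other, with means of 7.84 ± 0.826 and 8.14 ± 0.788 FPKM in mutant and wild type (SD, n = 3 each). The log2 difference was -0.05 (SE 0.14, adjusted p = 0.950, limma), and the 95% interval for the ratio on the FPKM + 1 scale was 0.765 to 1.22.

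cep290 encodes a large coiled-coil protein that bridges the membrane and the microtubules of the transition zone. Of its 3 rows, ENSORLG00000023432 (chromosome 6, 2309345 to 2335450, minus strand) and ENSORLG00000028369 (chromosome 6, 2304565 to 2305828, minus strand) lie inside the gene that RefSeq names cep290 in the assembly ASM223467v1. The build of the deposited coordinates is not named in the sources used here. ENSORLG00000022320 (chromosome 4, 31791053 to 31792326, minus strand) lies in an unnamed RefSeq gene. It resembles ENSORLG00000028369 in length, 510 against 501 bases. The sequences of these short rows were not compared. Whether they are copies that share reads is therefore not known, and both short rows are uncertain.

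ENSORLG00000023432 stood at 2.48, 2.53 and 2.58 FPKM in the mutant libraries, against 2.46, 1.62 and 1.67 FPKM in the wild-type libraries. The groups did not overlap, yet wild type 1 lay just below the mutant libraries, and the log2 difference of 0.29 (SE 0.18) did not pass (adjusted p = 0.810, limma). The short rows held 10 to 33 reads per library, and their groups overlapped. Their log2 differences were 0.11 (SE 0.26) for ENSORLG00000028369 and 0.39 (SE 0.32) for ENSORLG00000022320, which stood at 0.69 without mutant 1 and 0.21 without mutant 2. With the reads of the chromosome 6 rows summed, cep290 stood at 2.41, 2.90 and 2.80 FPKM in the mutant libraries, against 2.73, 1.76 and 1.90 FPKM in the wild-type libraries, and the groups overlapped.

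glis2 matched glis2b (ENSORLG00000008275, chromosome 8, 11197601 to 11220466, minus strand) and ENSORLG00000010364 (chromosome 1, 24084173 to 24095748, plus strand). The RefSeq gene over glis2b is named glis2, and the one over ENSORLG00000010364 is unnamed. The match of ENSORLG00000010364 therefore rests on the Swiss-Prot gene name alone. glis2b had the lowest level of all rows, 1.26, 0.718 and 1.27 FPKM in the mutant libraries, against 0.567, 0.438 and 2.27 FPKM in the wild-type libraries. ENSORLG00000010364 stood at 4.40, 2.25 and 4.63 FPKM in the mutant libraries, against 2.57, 2.31 and 5.03 FPKM in the wild-type libraries. In both rows wild type 3 was the highest library and wild type 2 or mutant 2 the lowest, and the groups overlapped. The log2 differences were 0.09 (SE 0.36) and 0.16 (SE 0.31), neither past the threshold (adjusted p = 0.966 and 0.929, limma).

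Wild type 3, where both glis2 rows were highest, was also the library with the highest summed smooth muscle, intestinal, exocrine pancreas and macrophage markers. The summed FPKM of 12 smooth muscle marker rows was 1011, 647 and 647 in the mutant libraries, against 308, 423 and 1613 in the wild-type libraries. 10 of these 12 rows had reads in all 6 libraries, and 0 were without a read in all of them. Intestinal markers summed to 10.4, 61.3 and 9.39 FPKM in the mutant libraries, against 12.2, 13.1 and 276 FPKM in the wild-type libraries. Macrophage markers summed to 296, 373 and 198 FPKM in the mutant libraries, against 229, 323 and 785 FPKM in the wild-type libraries. The part of any of these tissues or cells in the glis2 levels was not tested.

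nek8 and anks6 instead moved with markers of spermatids and sperm, of which 7 of the 12 symbols searched for had a row. The 7 matched marker rows, with odf3, spag6, rsph1 and tekt2 making up between 99.36% and 99.82% of the sum, came to 136, 164 and 205 FPKM in the mutant libraries, against 166, 179 and 113 FPKM in the wild-type libraries. Mutant 3 was the highest library and wild type 3 the lowest, in the sum and in each of these 4 markers, as in nek8 and anks6. The summed spermatogonia (763 FPKM) and spermatocyte (1689 FPKM) markers were also lowest in wild type 3. Mutant 3 was not the highest in either. In the summed motile ciliated cell markers mutant 3 was the highest (46.2 FPKM) and mutant 1 the lowest (24.1 FPKM). tekt1 stood at 0.636 to 0.721 FPKM in the mutant libraries and 0.040 to 0.323 FPKM in the wild-type libraries, and was highest in mutant 2. tekt3 and spag16 were at 0 FPKM in several libraries. Per 100 FPKM of the spermatid and sperm markers, nek8 stood at 11.8, 10.6 and 13.4 FPKM in the mutant libraries, against 10.2, 11.3 and 10.9 FPKM in the wild-type libraries. The part of the spermatid share in these levels was not tested.

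**Figure D3:**
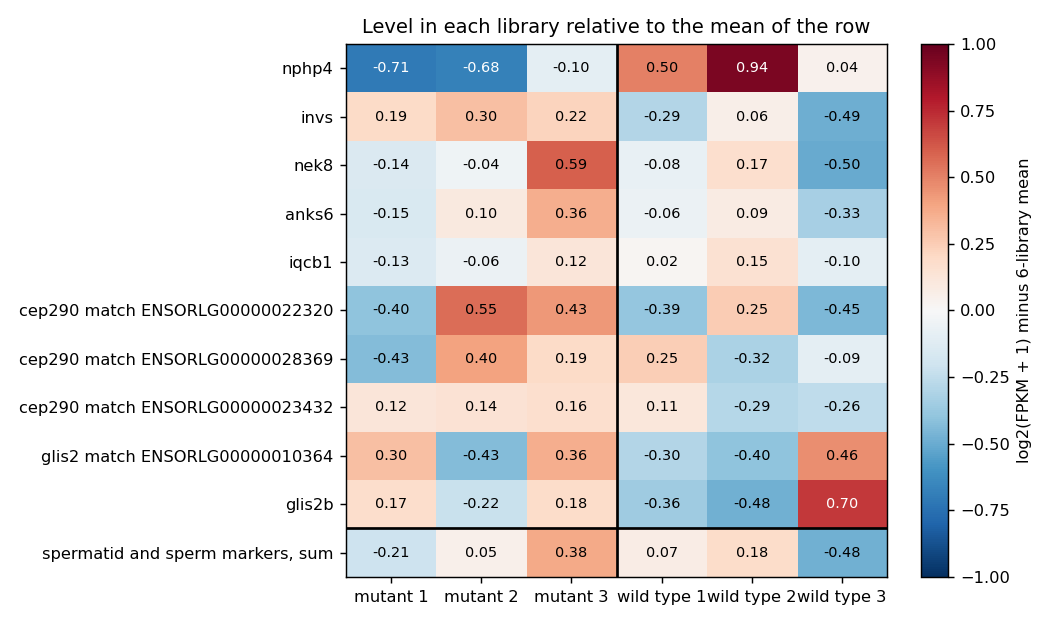
Heat map of log2(FPKM + 1) minus the mean over the 6 libraries for the 10 rows and, below the line, for the summed spermatid and sperm markers, with mutant libraries on the left and wild-type libraries on the right. nphp4 is below its mean in all 3 mutant libraries and above it in all 3 wild-type libraries, while nek8 and the markers are highest in mutant 3 and lowest in wild type 3.

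On the same scale nphp4 remained apart and invs did not. Per 100 FPKM of spermatid and sperm markers, nphp4 stood at 5.02, 4.28 and 5.33 FPKM in the mutant libraries, against 10.3, 13.1 and 10.8 FPKM in the wild-type libraries. invs stood at 5.88, 5.34 and 3.99 FPKM in the mutant libraries, against 3.27, 4.01 and 4.10 FPKM in the wild-type libraries. The FPKM of nphp4 alone already separated the groups, so its separation on this scale is not a separate result. The scale was chosen after the levels had been seen and carries no test. The share of all tested genes without overlap on this scale was not determined.

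**Figure D4:**
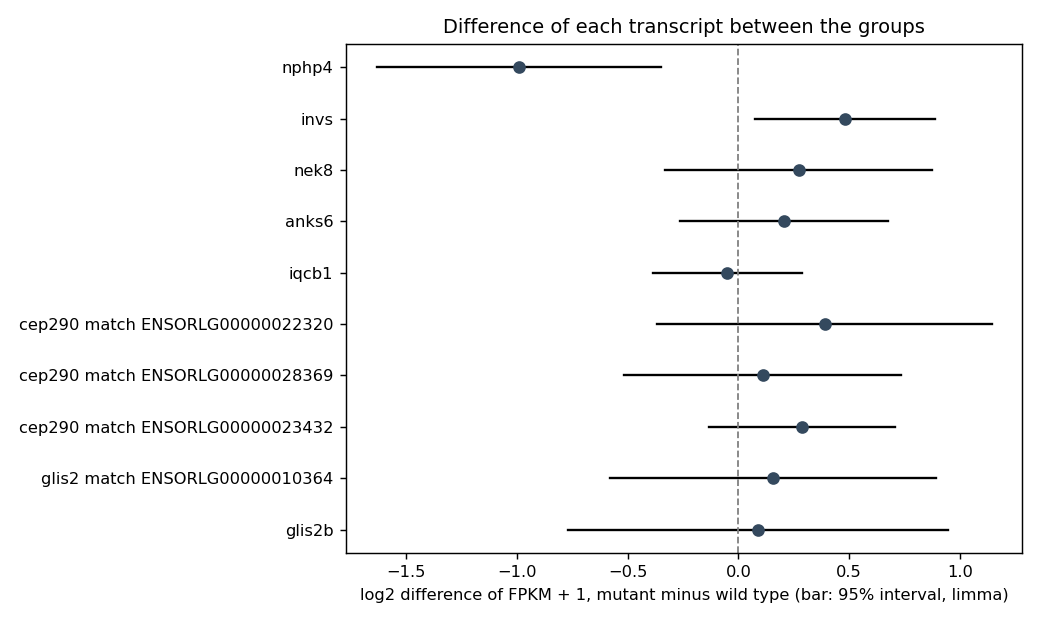
Mutant minus wild type difference in log2(FPKM + 1) of each row, with points at the estimate and bars for the 95% interval in limma. The intervals of nphp4 (-1.63 to -0.35) and invs (0.076 to 0.89) do not reach 0, and those of the other 8 rows do.

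The 5 tested genes whose pattern over the 6 libraries was most like that of nphp4 were found by the root mean square difference of their centred log2 values. The nearest was pax3b, a paired box transcription factor (chromosome 13), at a root mean square difference of 0.104, where the median of all tested genes was 0.640. pax3b stood at 1.00, 0.972 and 1.87 FPKM in the mutant libraries, against 3.19, 4.04 and 2.29 FPKM in the wild-type libraries. The next were ENSORLG00000026462, a match to NOL4 on chromosome 7 (0.153), aqp11, an aquaporin on chromosome 13 (0.172), and the unnamed genes ENSORLG00000029810 (0.177) and ENSORLG00000029456 (0.194). The unnamed genes were low, with means of 0.289 and 0.575 FPKM in the mutant and 1.87 and 1.55 FPKM in wild type. They passed the filter only through wild type, where they were higher. All 5 were lower in the mutant, as the choice by likeness to nphp4 brings with it, so no test of them is given. No other of the 10 rows was among them.

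Genes around the nephrocystins were described through 6 lists. 59 of their 73 rows were tested. 0 passed the threshold in limma, where 0.0592% of all tested genes did. limma-voom called 0 of all tested genes, so its 0 here says nothing about the lists. An unadjusted p below 0.05 in limma was reached by 4 of the 59, against 7.13% of all tested genes. Of the 59, 10 were higher and 3 lower in the mutant without overlap of the groups, where this held for 7.55% and 6.45% of all tested genes. tmem237a, among the 10 and among the rows above 0, passed the filter only through the mutant, where it was higher. The log2 difference of the list rows was above 0 in 45 of 59, with a median of 0.16. It was above 0 in 51.3% of all tested genes, with a median of 0.0075. This depended on the libraries that stood at the extremes: it was above 0 in 32 of 60 (median 0.021) without wild type 3, in 39 of 59 (median 0.071) without mutant 3, and in 23 of 60 (median -0.068) without both. The log2 difference of nphp4 was -1.22, -1.19 and -1.41 in the same fits.

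Of the other nephronophthisis genes, 16 of 17 tested rows had a log2 difference above 0, with a median of 0.23, and 0 were called. Without wild type 3 the count was 10 of 17, with a median of 0.0095, and without mutant 3 and wild type 3 it was 5 of 17, with a median of -0.12. The largest differences were those of cep83 and of the row that matches CEP164, both proteins of the distal appendages that dock the centriole at the membrane. cep83 stood at 11.8, 14.4 and 35.5 FPKM in the mutant libraries, against 13.0, 15.6 and 8.78 FPKM in the wild-type libraries, with a log2 difference of 0.55 (SE 0.42). Mutant 3 was far above the other libraries, and the groups overlapped. The CEP164 match, ENSORLG00000015757, stood at 3.91, 3.83 and 4.33 FPKM in the mutant libraries, against 2.62, 2.44 and 2.25 FPKM in the wild-type libraries. Its groups did not overlap, and with a log2 difference of 0.55 (SE 0.14, adjusted p = 0.399, limma) it did not pass.

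Among the partners of the inversin compartment, 8 of 11 tested rows were above 0, with a median log2 difference of 0.11. nek7, a related kinase, averaged 23.7 ± 4.30 and 18.8 ± 3.69 FPKM in mutant and wild type (SD, n = 3 each), with overlap. The nek7 row also led the list of Nek kinase paralogs together with nek6, which averaged 6.08 ± 0.377 FPKM in the mutant and 8.48 ± 1.66 FPKM in wild type. nek6 was lower in every mutant library than in any wild-type library (log2 difference -0.41, SE 0.17, adjusted p = 0.698, limma). In that list 5 of 8 tested rows were above 0.

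The partners of nephrocystin-4 had 9 of 14 tested rows above 0, with a median of 0.14. Their largest log2 differences were 0.48 (SE 0.28) for tmem237a, a transition zone membrane protein, and 0.36 (SE 0.18) for dvl2, a Dishevelled protein of Wnt signalling. tmem237a averaged 1.69 FPKM in the mutant and 0.980 FPKM in wild type, near the filter. It passed the filter only through the mutant, where it was higher, so its difference is given as a description. Of the partners of Cep290 and Iqcb1, 10 of 11 tested rows were above 0, with a median of 0.13. Among them cep72, a centriolar satellite protein, averaged 28.0 ± 2.37 and 20.9 ± 1.69 FPKM in mutant and wild type (SD, n = 3 each; log2 difference 0.40, SE 0.13, adjusted p = 0.554, limma), without overlap. ninl, a centrosomal protein, averaged 11.5 ± 4.19 and 8.45 ± 1.71 FPKM, with overlap. Of the Glis and Gli factors only 3 rows were tested, with glis3 at 0.32 (SE 0.17), gli3 at -0.37 (SE 0.18) and the Gli inhibitor sufu at -0.03 on the log2 scale.

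**Figure D5:**
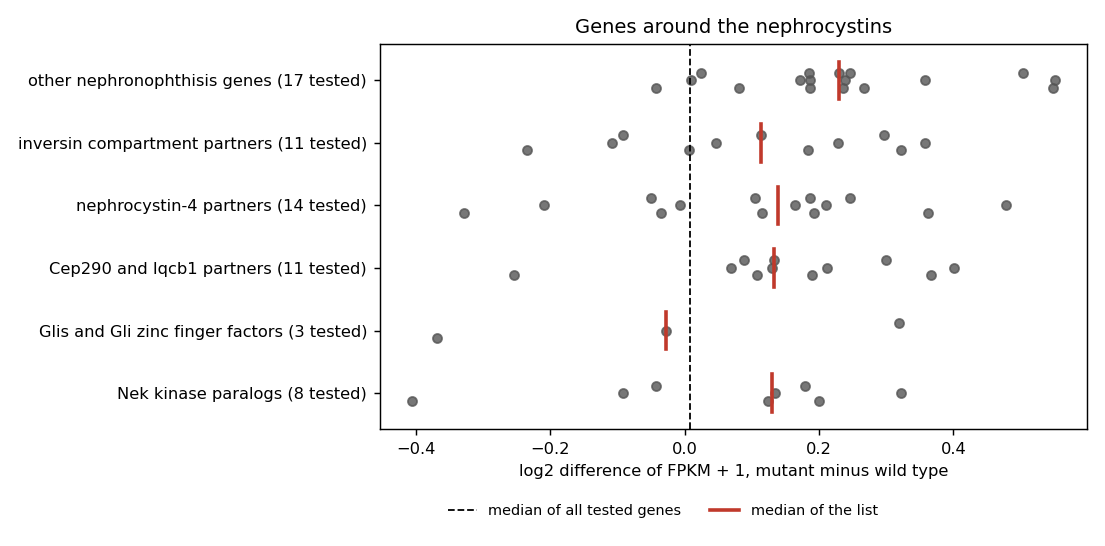
Mutant minus wild type difference in log2(FPKM + 1) of each tested row (point) in 6 lists of genes around the nephrocystins, with the list median as a red line and the median of all tested genes as a dashed line. Most points of the other nephronophthisis genes lie right of 0 (16 of 17), and none of the points stands for a gene past the threshold.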

How the data were processed

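Testis RNA was extracted with TRIzol, per the labels' protocols. The authors deposited FPKM values and, as another quantity, the length in bases by which each gene's FPKM was divided. DESeq2 1.20.0, featureCounts 1.5.0-p3, HISAT2 2.0.5, fastp and CASAVA 1.8 are listed, without roles, in the submitters' processing notes. Genome build and strand setting are not given in the sources used here. Multiplied by gene length, 100% of the deposited FPKM values above 0 were whole multiples of 1 read, within 0.01 read. The library size in the deposited FPKM of wild type 3 was 13693794, below its 15516979 reads on genes, and those of the other 5 libraries lay above their reads.

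limma 3.58.1 (R 4.3.3) compared the groups on log2(FPKM + 1), with an intensity trend, robust moderation and no covariate, at a Benjamini-Hochberg adjusted p below 0.05 over genes that averaged 1 FPKM or more in the mutant or the wild type. Differences on this scale understate the change of low genes. Named genes were the 10 rows, the opposite-strand gene in nphp4, the 2 largest differences and any call per list, and the 5 patterns nearest to nphp4; sufu was added after its value was seen. A gene that this rule names is not reported here. Members, lists and rule were chosen with earlier results of these data known. Lists were matched by symbol, with a final a or b allowed, or by the Swiss-Prot gene name of unnamed rows. The other marker lists gave summed FPKM, in mutant and wild-type libraries, of 920 to 1046 and 763 to 1127 (spermatogonia), 1028 to 1347 and 1157 to 1325 (Sertoli cells), 280 to 342 and 299 to 389 (Leydig cells), 24.1 to 46.2 and 27.0 to 42.3 (motile ciliated cells), 198 to 373 and 229 to 785 (macrophages) and 32.8 to 40.0 and 33.1 to 44.1 (blood). Of the spermatogonia rows, piwil1 (317 to 519 FPKM) and ddx4 (431 to 593 FPKM) made up most of the sum. The remaining rows stood at 3.83 FPKM or less in every library.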

Additional observations from a re-analysis of the deposited data

How the results depend on the processing

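The log2 difference of nphp4 stayed below 0 and uncalled in all 14 alternatives (-1.41 to -0.77, adjusted p in limma 0.0784 to 0.966), and invs stayed above 0 and uncalled (0.36 to 0.63, adjusted p 0.523 to 0.996). 0 of the 10 rows and 0 rows of the lists were called in any alternative. The count of genes called over all genes, 9, was 14 with scaling by library totals, 0 with limma-voom (1050 genes had an unadjusted p below 0.05), 16 at a threshold of 0.10, which admits more genes by construction, and 2 to 18 when each library was left out in turn. It was 3, 2 and 2 without mutant 1, 2 and 3, 4 without wild type 1 and 18 without wild type 3. Leaving out mutant 3 and wild type 3 together, an alternative chosen after seeing the data, also gave 18, and there the log2 difference was -0.14 for nek8 and -0.040 for anks6, turned from above 0. glis2b was under the filter in that fit, and the 6 rows averaging under 5 FPKM in both groups were not tested with the 5 FPKM filter. With 1 library left out, log2 differences ran from 0.043 to 0.42 for nek8, from 0.076 to 0.33 for anks6, from 0.21 to 0.69 for ENSORLG00000022320, from 0.22 to 0.42 for ENSORLG00000023432, from -0.12 to 0.014 for iqcb1, from -0.065 to 0.35 for ENSORLG00000028369, from -0.0058 to 0.43 for ENSORLG00000010364 and from -0.13 to 0.46 for glis2b. The cause was not tested. With the replicate number as a block, nphp4 was at -0.99 (adjusted p = 0.966, limma) and 6 genes were called. Deviations of same-numbered libraries from their group mean correlated across genes at 0.31, -0.56 and -0.42, which gave no sign of pairing by number. With 3 libraries a group, such values cannot exclude a pairing when the fish were collected. The spread between 3 libraries a group limits what could be called, and in the short cep290 rows the 10 to 33 reads a library do so too.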
